A study of Mus musculus with 203 samples.

Results

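The effect of dexamethasone (DEX) on lung parenchyma of cigarette smoke-exposed mice was examined by comparing the 10 libraries of the group PBS.CS.DEX with the 10 libraries of the group PBS.CS at 11 weeks, which are 20 of the 160 libraries of that time point. Members were chosen by sample title alone. Both groups were female Balb/C mice of 18-20 weeks that received intranasal phosphate-buffered saline (PBS), the vehicle for house dust mite (HDM) extract, and that breathed cigarette smoke (CS) for 8 weeks. The PBS.CS.DEX group was also given DEX during week 11, at a dose and by a route that the labels do not give. The groups PBS.AIR and PBS.AIR.DEX breathed normal air, without or with DEX, and serve as the comparison without smoke. Some genes that were high in smoke were also higher in PBS.AIR.DEX than in PBS.AIR, as given below. Airway libraries of the same smoke groups, and parenchyma of HDM.CS and HDM.CS.DEX mice that received HDM extract as well as smoke, are set beside it, each with 10 libraries a group. Parenchyma is the gas-exchange tissue left after the airways were dissected away. The labels do not say whether each library is a separate mouse or which airway and parenchyma libraries share one, so p-values measure the spread between libraries. No library of a group repeated another within sampling noise.

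Dexamethasone is a synthetic glucocorticoid that enters cells and binds the glucocorticoid receptor, which then binds DNA to raise genes such as Fkbp5, Tsc22d3 and Per1 and also restrains inflammatory transcription factors. In the lung, glucocorticoids can lower lymphocyte and dendritic cell numbers and promote the maturation of surfactant-producing alveolar type II cells. Smoke exposure fills the alveoli with lipid-laden macrophages and neutrophils, an inflammation known to respond weakly to steroids.

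Total estimated counts ranged from 23966697 to 33654831 in PBS.CS and from 23287603 to 37681861 in PBS.CS.DEX libraries, and levels are given as CPM, counts scaled to a common library size after TMM. Alveolar type I genes were at a mean log2 CPM of 8.92 to 9.55 in the 20 libraries. Airway libraries ran from 7.36 to 9.24, so these ranges overlapped. Smooth muscle genes were at 2.96 to 3.77, against a median of 5.41 in airway libraries. One PBS.CS library, X173, stood apart. It held skeletal muscle transcripts at a mean log2 CPM of 3.70, against a median of -1.33 in the other parenchyma libraries, and its 10 most abundant genes took 15.1% of its counts. Of the 20 libraries it was also highest for ciliated (5.43), club and goblet (6.39) and cardiac muscle genes (1.37). These levels lay inside the ranges of both airway and other parenchyma libraries. Its smooth muscle genes were the lowest of the 20, at 2.96. Another PBS.CS library, X74, lay near X173 on the second principal component. Without X173, 922 genes were higher and 1378 lower, and without both X173 and X74, 758 were higher and 1237 lower, in place of 1348 and 1732 with all libraries. Mitochondrial transcripts took 3.54% to 4.15% of counts in PBS.CS and 2.78% to 3.82% in PBS.CS.DEX, and the part of this in the results was not tested.

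With DEX, falls were larger than rises, and genes of red cells, lymphocytes, dendritic cells and MHC class II were among the largest falls. Of 18250 genes tested with limma-voom, 436 were lower (2.39%) and 65 were higher (0.356%) with a log2 fold change (log2FC) of at least 1 in size and an adjusted p-value under 0.05. Without the fold limit, 1732 genes were lower (9.49%) and 1348 higher (7.39%), with a median log2FC of -0.56 among the former and 0.31 among the latter, against -0.02 over all genes. The 10 DEX libraries lay below all 10 PBS.CS libraries for 1.11% of genes and above all of them for 66 (0.362%). On the first principal component of the 500 most variable genes, which held 46.3% of the variance, PBS.CS libraries scored -32.4 to -2.67 and PBS.CS.DEX libraries 0.171 to 33.4, without overlap.

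**Figure D1:**
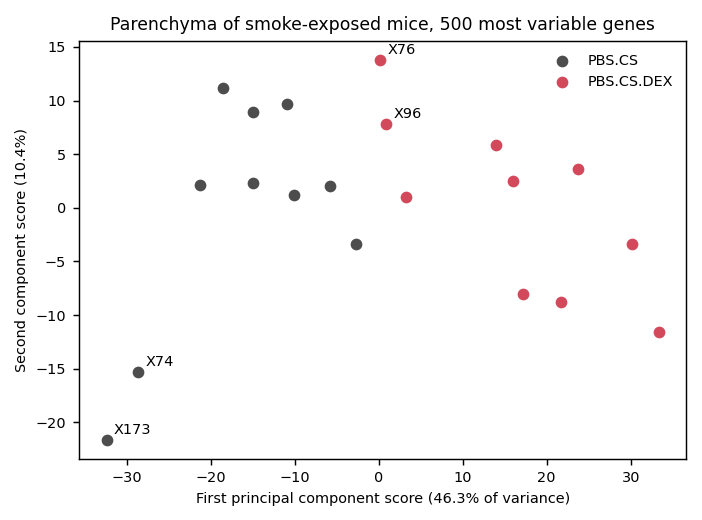
Scores of the 20 parenchyma libraries on the first and second principal components of the 500 most variable genes, as log2 CPM; points are libraries, grey for PBS.CS and red for PBS.CS.DEX. The groups part on the first component (46.3% of variance), the DEX libraries X76 and X96 sit nearest to the PBS.CS group, and X173 and X74 are lowest on the second (10.4%).

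The smallest adjusted p-value was shared by Ube2l6, described with the interferon genes, and Cd207 (chr6:83671215-83677857, mm10, minus strand), which encodes langerin, a lectin of Langerhans cells and lung dendritic cells. It ranged over 9.99 to 16.1 CPM (median 12.6) in PBS.CS libraries and 0.46 to 1.92 CPM (median 1.08) in PBS.CS.DEX libraries. Every DEX library was therefore below every PBS.CS library, and the fall was 11.5-fold (log2FC -3.52, standard error 0.28, limma adjusted p = 1.6e-20). In the air groups its median was 5.5 CPM in PBS.AIR and 0.75 CPM in PBS.AIR.DEX. Itgae, the CD103 integrin chain of type 1 dendritic cells and resident T cells (chr11:73090583-73147446, plus strand), ranged over 8.83 to 13.6 CPM (median 10.4) in PBS.CS libraries and 1.19 to 5.96 CPM (median 3.09) in PBS.CS.DEX libraries, again without overlap (log2FC -1.83, standard error 0.20, limma adjusted p = 4.4e-13). Flt3, the receptor that sustains dendritic cell development, fell (log2FC -1.49, adjusted p = 8.6e-10), as did Xcr1 (log2FC -3.03, adjusted p = 8e-09) and Clec9a (log2FC -1.89, adjusted p = 5.9e-08), a chemokine receptor and a dead-cell receptor of type 1 dendritic cells. In the dendritic cell list, 9 of 13 tested members fell and none rose (median log2FC -1.49), and Cd24a, Batf3, Zbtb46 and Clec10a did not pass. In bulk tissue, fewer cells of a type and less RNA per cell cannot be told apart.

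The MHC class II genes, whose products present antigen to CD4 T cells, fell together. H2-Aa, the alpha chain of I-A (chr17:34282744-34287823, minus strand), ranged over 357 to 506 CPM (median 423) in PBS.CS libraries and 109.5 to 288 CPM (median 156.1) in PBS.CS.DEX libraries. No DEX library reached the lowest PBS.CS library (log2FC -1.40, standard error 0.15, limma adjusted p = 4.8e-13). H2-Eb1, the beta chain of I-E, ranged over 211 to 316 CPM (median 273) in PBS.CS libraries and 57.1 to 169.4 CPM (median 89.5) in PBS.CS.DEX libraries (log2FC -1.59, standard error 0.18, limma adjusted p = 1.6e-12). The invariant chain Cd74, which guides class II through the cell, fell (log2FC -1.10, adjusted p = 1.9e-10), as did H2-Ab1 (log2FC -1.45, adjusted p = 1.8e-08) and Ciita, the class II transactivator (log2FC -0.89, adjusted p = 0.00095). Of the list, 13 of 14 tested members fell, none rose (median log2FC -1.13), and the exception was the costimulatory receptor Cd40 (log2FC 0.01). BALB/c mice carry another MHC haplotype than the C57BL/6 reference, where E-alpha is annotated as H2-Ea-ps (log2FC -1.34), so counts of this family are uncertain. Without smoke, the PBS.AIR and PBS.AIR.DEX medians were 352 and 147.5 CPM for H2-Aa, 214 and 74.7 CPM for H2-Eb1, and 7.28 and 3.14 CPM for Itgae.

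Class II promoters share a Y box, CTGATTGG, bound by NF-Y beside the CIITA platform. The promoters of H2-Aa, chr17:34287774-34288073 (minus strand), and H2-Eb1, chr17:34305617-34305916 (plus strand), are shown because these genes fell without overlap and hold the box. Each runs from 250 bases before to 50 after the gene's start on the gene's strand (RefSeq, GRCm38.p6), with the Y box in capitals, beginning -51 and -62 bases from the start.
H2-Aa: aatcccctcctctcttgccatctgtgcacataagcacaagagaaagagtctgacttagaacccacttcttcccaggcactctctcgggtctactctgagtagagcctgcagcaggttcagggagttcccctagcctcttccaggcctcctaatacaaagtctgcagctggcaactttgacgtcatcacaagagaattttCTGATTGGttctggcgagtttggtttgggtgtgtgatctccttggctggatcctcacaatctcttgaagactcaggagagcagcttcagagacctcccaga
H2-Eb1: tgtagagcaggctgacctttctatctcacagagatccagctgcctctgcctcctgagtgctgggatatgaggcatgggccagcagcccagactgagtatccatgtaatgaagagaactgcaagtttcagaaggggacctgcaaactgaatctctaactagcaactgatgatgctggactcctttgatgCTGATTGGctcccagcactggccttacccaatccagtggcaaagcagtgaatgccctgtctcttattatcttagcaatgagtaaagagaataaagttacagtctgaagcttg
Read on both strands, the Y box was in 3 of 8 class II genes with a promoter sequence, and in 6.24% of the 12926 tested genes that have one. A match is a description of the C57BL/6 reference sequence only, and the sequence of the BALB/c mice was not examined.

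Lymphocyte genes fell. Of the T cell list, 23 of 24 tested members fell and none rose (median log2FC -1.48). Ccr7, which homes naive T cells and mature dendritic cells to lymph nodes, ranged over 9.61 to 23.1 CPM (median 14.1) in PBS.CS libraries and 1.19 to 8.2 CPM (median 3.26) in PBS.CS.DEX libraries (log2FC -1.95, standard error 0.36, limma adjusted p = 1.9e-05). Foxp3, the regulatory T cell factor, ranged over 0.517 to 2 CPM (median 1.4) in PBS.CS libraries and 0.115 to 0.504 CPM (median 0.347) in PBS.CS.DEX libraries (log2FC -2.03, standard error 0.46, limma adjusted p = 0.00055), and Icos and Ctla4, costimulatory and inhibitory receptors, were also lower without overlap (log2FC -1.31 and -2.002). All 13 tested members of the cytotoxic lymphocyte list fell (median -1.99). Their summed level ran from 38.7 to 118.6 CPM (median 65.8) in PBS.CS and from 5.86 to 51.6 CPM (median 12.7) in PBS.CS.DEX. Klrg1, an inhibitory receptor of effector lymphocytes, had the smallest p in that list (log2FC -2.13, adjusted p = 5.7e-09). Medians in PBS.AIR and PBS.AIR.DEX were 11.5 and 6.01 CPM for Ccr7, 0.643 and 0.214 CPM for Foxp3, and 4.06 and 0.96 CPM for Klrg1.

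B cell and plasma cell genes were lower too. In the B cell list 15 of 17 tested members fell, none rose, and the median log2FC was -2.02. Cd79a, part of the B cell receptor, ranged over 8.78 to 40.8 CPM (median 23.2) in PBS.CS libraries and 0.575 to 15.3 CPM (median 4.47) in PBS.CS.DEX libraries. The ranges of the groups overlapped (log2FC -2.31, standard error 0.44, limma adjusted p = 3.2e-05). Cxcr5, which directs B cells to follicles, fell (log2FC -2.53, adjusted p = 4.5e-05). Among plasma cell genes 6 of 14 tested fell (median -1.40), including the immunoglobulin constant chains Igha (log2FC -1.41, adjusted p = 9.5e-06) and Igkc (log2FC -1.43, adjusted p = 4.9e-05) and the joining chain Jchain (log2FC -1.40, adjusted p = 6.1e-05). Xbp1, Prdm1 and Irf4, which secretory and other cells also use, were at -0.01, -0.04 and -0.58 and did not pass. Immunoglobulin genes have near copies, and their counts are uncertain. Without smoke, the PBS.AIR and PBS.AIR.DEX medians were 25 and 13.9 CPM for Cd79a and 74 and 16.7 CPM for Igha.

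Red cell transcripts were among the largest falls. Slc4a1, the band 3 anion exchanger of the red cell membrane (chr11:102348824-102366203, minus strand), ranged over 1.7 to 7.22 CPM (median 4.19) in PBS.CS libraries and 0.0263 to 0.325 CPM (median 0.116) in PBS.CS.DEX libraries, a 39.8-fold difference with no overlap (log2FC -5.32, standard error 0.53, limma adjusted p = 5.8e-15). Hbb-bt, an adult beta globin, ranged over 276 to 1143 CPM (median 623) in PBS.CS libraries and 29.9 to 70.8 CPM (median 49) in PBS.CS.DEX libraries (log2FC -3.62, standard error 0.36, limma adjusted p = 5.8e-15). Alas2, the first enzyme of haem synthesis in red cell precursors, ranged over 75.4 to 217 CPM (median 148.3) in PBS.CS libraries and 9.3 to 41.5 CPM (median 15.2) in PBS.CS.DEX libraries (log2FC -3.14, standard error 0.29, limma adjusted p = 4.7e-17). None of these 3 genes overlapped between groups. Mkrn1, a ubiquitin ligase, also fell without overlap (log2FC -0.44, adjusted p = 7.4e-13). In the erythroid and platelet list 10 of 11 tested members fell (median -3.08), and Gp1bb did not pass (log2FC -0.32). The list summed from 7430 to 27073 CPM (median 16798) in PBS.CS and from 1197 to 2903 CPM (median 2041) in PBS.CS.DEX, with every DEX library below every PBS.CS library. How much blood each sample held was not tested. With library sizes taken without the haemoglobin genes, which changes the scaling only, 1403 genes were higher and 1717 lower. Medians in PBS.AIR and PBS.AIR.DEX were 2.23 and 0.236 CPM for Slc4a1, 474 and 102.4 CPM for Hbb-bt, and 93.6 and 19.98 CPM for Alas2.

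**Figure D2:**
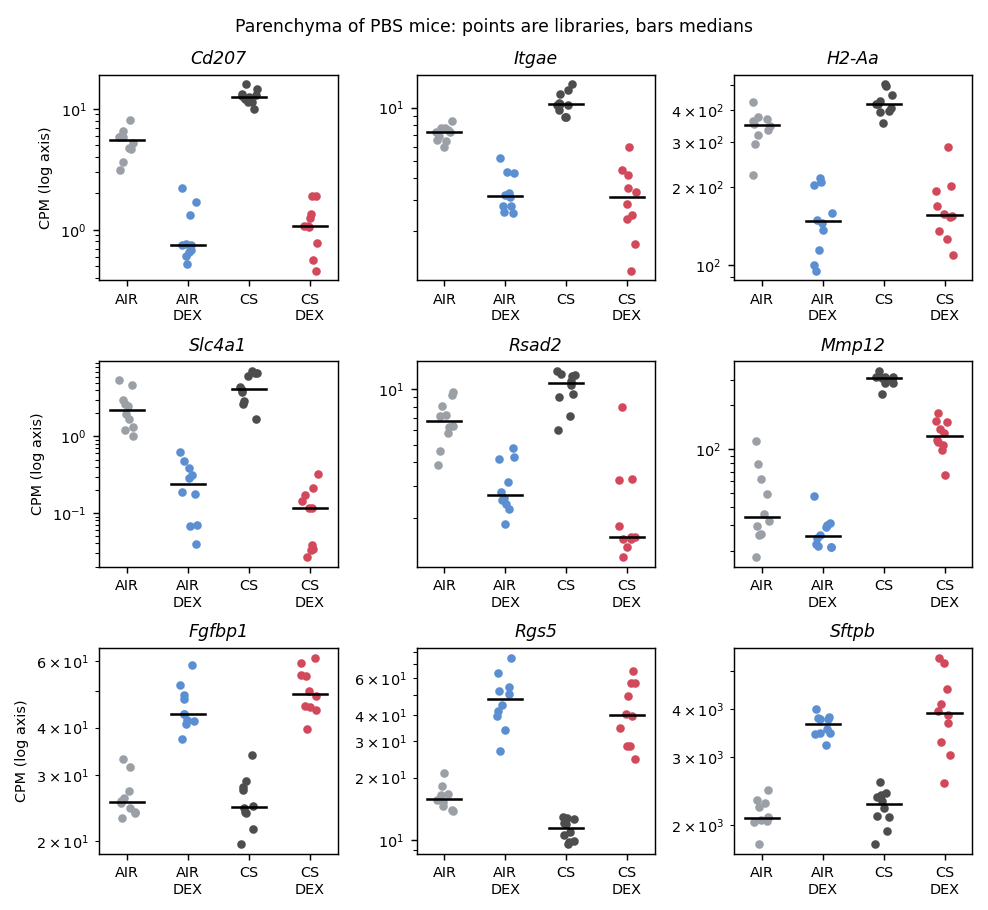
CPM of 9 genes (log axes) in parenchyma of PBS mice by group, AIR, AIR with DEX, CS and CS with DEX; points are libraries and bars medians. Cd207, Itgae, H2-Aa, Slc4a1 and Mmp12 are lower in every CS DEX library than in any CS library, Fgfbp1 and Rgs5 higher in every one, and for Rsad2 1 DEX library (8.01 CPM) lies among the CS libraries.

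Interferon-stimulated genes, the antiviral effectors switched on by interferon receptors, were mostly lower. In that list 14 of 19 tested members fell and none rose (median -0.80). Rsad2, the antiviral enzyme viperin, ranged over 6 to 12.5 CPM (median 10.8) in PBS.CS libraries and 1.23 to 8.01 CPM (median 1.59) in PBS.CS.DEX libraries (log2FC -2.17, standard error 0.29, limma adjusted p = 4.6e-09). A single DEX library, X76, held the highest DEX value. Isg15, a ubiquitin-like tag, ranged over 9.98 to 41.6 CPM (median 18.5) in PBS.CS libraries and 5.55 to 17.9 CPM (median 7.43) in PBS.CS.DEX libraries (log2FC -1.09, standard error 0.24, limma adjusted p = 0.00042). Ube2l6, the enzyme that attaches it (chr2:84798828-84810335, plus strand), ranged over 51.8 to 83.2 CPM (median 67.9) in PBS.CS libraries and 20.8 to 35.6 CPM (median 25) in PBS.CS.DEX libraries, without overlap (log2FC -1.36, standard error 0.11, limma adjusted p = 1.6e-20). Ifi44 fell (log2FC -1.65, adjusted p = 7e-05), and so did Irf7, a factor that amplifies interferon production (log2FC -1.003, adjusted p = 0.00055). Ifit1, Ifit2 and Ifit3 were at log2FC -0.47, -0.08 and -0.21 and did not pass. Without smoke, the PBS.AIR and PBS.AIR.DEX medians were 6.7 and 2.67 CPM for Rsad2, 18.3 and 10.7 CPM for Isg15, and 54.2 and 28 CPM for Ube2l6.

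Interferon-stimulated promoters often hold an interferon-stimulated response element, searched here by its core GAAANNGAAA on both strands. The promoters of Isg15, chr4:156200769-156201068 (minus strand), and Rsad2, chr12:26456403-26456702 (minus strand), are printed because both genes fell and hold the core (same window and source), with each core match in capitals. In Isg15 3 overlapping matches run together, and in Rsad2 the match lies on the opposite strand.
Isg15: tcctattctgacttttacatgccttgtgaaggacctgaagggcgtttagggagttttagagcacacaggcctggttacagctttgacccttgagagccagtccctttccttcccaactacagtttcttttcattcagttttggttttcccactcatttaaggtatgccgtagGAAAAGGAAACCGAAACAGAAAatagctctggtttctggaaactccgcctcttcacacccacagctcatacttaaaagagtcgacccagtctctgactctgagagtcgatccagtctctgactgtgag
Rsad2: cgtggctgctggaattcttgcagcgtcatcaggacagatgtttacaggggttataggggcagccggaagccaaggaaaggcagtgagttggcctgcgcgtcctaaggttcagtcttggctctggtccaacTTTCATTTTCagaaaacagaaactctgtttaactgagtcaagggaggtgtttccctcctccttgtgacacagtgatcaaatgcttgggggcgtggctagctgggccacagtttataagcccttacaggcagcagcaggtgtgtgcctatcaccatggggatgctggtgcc
The core was in 7 of 12 genes of the list with a promoter sequence and in 3.85% of all tested genes that have one. Among genes lower at an adjusted p-value under 0.05 it was in 6.8%, and among genes higher in 2.42%.

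Macrophage, monocyte and chemokine genes fell in part. Mmp12, the macrophage elastase linked to smoke-induced emphysema, ranged over 238 to 345 CPM (median 309.8) in PBS.CS libraries and 66.3 to 177.1 CPM (median 122.3) in PBS.CS.DEX libraries. No DEX library overlapped the PBS.CS range (log2FC -1.32, standard error 0.26, limma adjusted p = 5e-05), and its median was 34.1 CPM in PBS.AIR and 25.2 CPM in PBS.AIR.DEX. Itgax, the CD11c chain of alveolar macrophages and dendritic cells, ranged over 186.5 to 257 CPM (median 225) in PBS.CS libraries and 85.2 to 172.01 CPM (median 127.01) in PBS.CS.DEX libraries (log2FC -0.85, standard error 0.21, limma adjusted p = 0.0013), and Abcg1, a cholesterol exporter, over 155.4 to 196.4 CPM (median 176.4) in PBS.CS libraries and 62.5 to 136.9 CPM (median 110.7) in PBS.CS.DEX libraries (log2FC -0.74, standard error 0.18, limma adjusted p = 0.0013). Of the lipid-laden macrophage list 6 of 24 tested fell and 1 rose, Cd36 (median -0.27). Of the general macrophage list 12 of 20 tested fell (median -0.46), led by the eosinophil-associated ribonucleases Ear1 (log2FC -1.85, adjusted p = 2.5e-07) and Ear2 (log2FC -1.27, adjusted p = 7.2e-05) and by the lectin Siglecf (log2FC -1.31, adjusted p = 5e-07), which alveolar macrophages and eosinophils share. Csf1r, Adgre1 and Cd68, borne by most macrophages, were at -0.18, -0.21 and -0.38 and did not pass.

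Chemokines that draw monocytes and T cells were lower in 9 of 17 tested members (median -0.67), and in 5 without X173 and X74. Ccl22, a dendritic cell product that attracts regulatory T cells, ranged over 19.9 to 39.7 CPM (median 29.3) in PBS.CS libraries and 3.14 to 13.5 CPM (median 10.5) in PBS.CS.DEX libraries (log2FC -1.64, standard error 0.27, limma adjusted p = 1.1e-06), and Ccl17, its close relative, fell as well (log2FC -0.96, adjusted p = 0.00048). Il12b, the shared p40 subunit of IL-12 and IL-23, ranged over 1.05 to 2.51 CPM (median 1.66) in PBS.CS libraries and 0.129 to 0.431 CPM (median 0.211) in PBS.CS.DEX libraries, without overlap (log2FC -2.79, standard error 0.37, limma adjusted p = 1.5e-09). In the inflammatory cytokine list 12 of 25 tested members fell and none rose, among them Il1a (log2FC -0.68, adjusted p = 0.0014), Il1b (log2FC -0.75, adjusted p = 0.032) and the interleukin 1 antagonist Il1rn (log2FC -0.91, adjusted p = 0.0018). Dnase1l3, a DNase secreted by dendritic cells and macrophages, had one of the largest falls (log2FC -3.16, adjusted p = 0.0014). Of other chemokine lists, 8 of 15 tested lymphoid and 4 of 14 tested neutrophil-attracting members fell and none rose (medians -0.998 and -0.33). Tnf, Il6 and Il33 were at -0.60, 0.07 and 0.23 and did not pass. Neutrophil genes showed no common direction, with 1 higher and 2 lower of 17 (median -0.02). The collagenase Mmp8 rose (log2FC 0.99, adjusted p = 0.0014), Trem1, an amplifier of myeloid activation, fell (log2FC -0.76, adjusted p = 0.0019), and S100a8 and S100a9, the calprotectin subunits, were at -0.02 and -0.20 and did not pass.

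**Figure D3:**
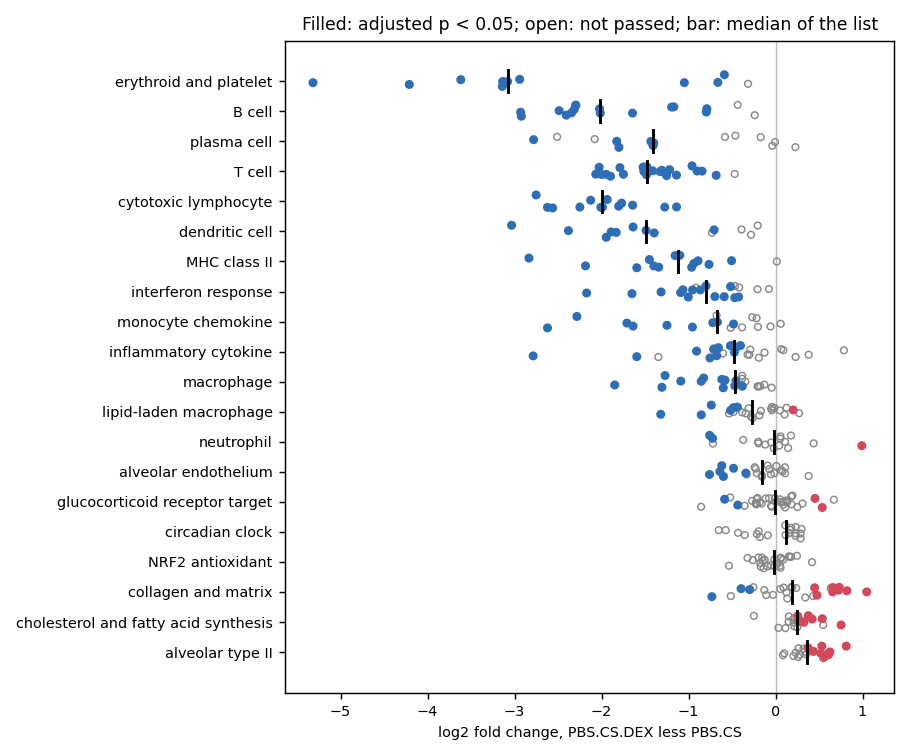
log2 fold change (PBS.CS.DEX less PBS.CS) of each tested member of 20 gene lists; filled points passed an adjusted p-value of 0.05, blue lower and red higher, open points did not, and black bars are list medians. Blood cell and lymphocyte lists lie far left, clock, NRF2 and receptor target lists straddle 0, and alveolar type II genes lie to the right.

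Genes that rose moved less in fold than those that fell. Poc1a, a centriole protein, had the smallest p among them (log2FC 0.94, standard error 0.10, limma adjusted p = 4.8e-13), at 7.03 to 12.2 CPM (median 8.13) in PBS.CS libraries and 10.9 to 18.7 CPM (median 17) in PBS.CS.DEX libraries. Fgfbp1, which releases fibroblast growth factors from the matrix, ranged over 19.6 to 33.9 CPM (median 24.6) in PBS.CS libraries and 39.7 to 61.4 CPM (median 49.2) in PBS.CS.DEX libraries, so that every DEX library was above every PBS.CS library (log2FC 0.98, standard error 0.11, limma adjusted p = 5e-12). Rgs5, a pericyte regulator of G protein signalling, ranged over 9.57 to 12.9 CPM (median 11.5) in PBS.CS libraries and 24.6 to 64.7 CPM (median 39.99) in PBS.CS.DEX libraries, a 3.57-fold rise without overlap (log2FC 1.83, standard error 0.28, limma adjusted p = 1.2e-07). Myh7, the slow cardiac myosin heavy chain, ranged over 56 to 90.8 CPM (median 71.4) in PBS.CS libraries and 96.9 to 218 CPM (median 134.3) in PBS.CS.DEX libraries (log2FC 1.06, standard error 0.13, limma adjusted p = 2.5e-10), with no overlap, and it was the 1 riser of 16 cardiac genes. Among the other small p-values were the chloride channel Ano1 (log2FC 0.68), the desmosomal periplakin Ppl (0.89), the vesicle motor Myo5b (0.60), Ctnnal1 (0.55), Tom1l1 (0.49) and Adssl1 (0.92). Among genes with a mean of at least 1 CPM, the epidermal growth factor receptor ligand Ereg had the largest rise, at 0.0656 to 1.31 CPM (median 0.585) in PBS.CS libraries and 0.657 to 25.5 CPM (median 2.61) in PBS.CS.DEX libraries (log2FC 2.58, standard error 0.47, limma adjusted p = 1.2e-05), with overlap between groups, and Sprr1a (2.11), Gm13502 (1.79) and Bcl2l15 (1.74) were the next largest together with Rgs5. Medians in PBS.AIR and PBS.AIR.DEX were 6.12 and 11.6 CPM for Poc1a, 25.3 and 43.4 CPM for Fgfbp1, 15.8 and 47.5 CPM for Rgs5, 77.2 and 112.2 CPM for Myh7, and 0.215 and 0.572 CPM for Ereg.

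Alveolar type II genes rose in 9 of 20 tested members and fell in none (median 0.36). Sftpb, a hydrophobic surfactant protein, ranged over 1783 to 2581 CPM (median 2262) in PBS.CS libraries and 2568 to 5431 CPM (median 3895) in PBS.CS.DEX libraries (log2FC 0.81, standard error 0.16, limma adjusted p = 7.2e-05). Abca3, the lipid transporter of lamellar bodies, ranged over 387 to 567 CPM (median 456) in PBS.CS libraries and 503 to 992 CPM (median 688) in PBS.CS.DEX libraries (log2FC 0.63, standard error 0.11, limma adjusted p = 7.9e-06). Etv5 and Slc39a8 also rose (0.56 and 0.53), and Sftpc was at 0.26 and did not pass. Of the cholesterol and fatty acid synthesis list 7 of 20 tested rose and none fell (median 0.25), including Acaca, acetyl-CoA carboxylase (log2FC 0.75, adjusted p = 0.0042), and Sqle, squalene epoxidase (log2FC 0.38, adjusted p = 0.014). Without X173 and X74, 3 of that list rose. Alveolar type I genes rose in 2 of 16 tested members (median 0.26), Krt7 and Sec14l3, beside 7.39% higher over all genes. When the 20 libraries were fitted alone, 8 of them rose and 1 fell. Without smoke, the PBS.AIR and PBS.AIR.DEX medians were 2092 and 3657 CPM for Sftpb and 298 and 519 CPM for Abca3.

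Matrix genes moved in both directions. Collagen VI chains rose, with Col6a1 at 101 to 176.6 CPM (median 150.9) in PBS.CS libraries and 178.2 to 344 CPM (median 244) in PBS.CS.DEX libraries (log2FC 0.73, standard error 0.10, limma adjusted p = 1.1e-08) and Col6a2 at 48.1 to 100.2 CPM (median 78.4) in PBS.CS libraries and 97.2 to 192.5 CPM (median 124.02) in PBS.CS.DEX libraries (log2FC 0.73, standard error 0.11, limma adjusted p = 2.7e-07). Thbs1, thrombospondin (log2FC 0.82, adjusted p = 0.00069), and Tnc, tenascin C (log2FC 1.05, adjusted p = 0.0029), were higher, and Col15a1 (log2FC -0.73, adjusted p = 0.011), Postn (log2FC -0.40, adjusted p = 0.0076) and Fbln5 (log2FC -0.30, adjusted p = 0.036) were lower, so that 8 rose and 3 fell of 26 (median 0.19). Beside these counts, 7.39% of all genes were higher and 9.49% lower. The fibrillar collagens Col1a1 and Col3a1 were at 0.43 and -0.13 and did not pass. Of proteases and inhibitors, Timp3 rose (log2FC 0.69, adjusted p = 8e-06) and cathepsin S, Ctss, fell (log2FC -0.60, adjusted p = 0.00044). The tight junction gene Cldn1, at 15 to 25 CPM (median 18.6) in PBS.CS libraries and 5.65 to 8.64 CPM (median 6.41) in PBS.CS.DEX libraries, was lower without overlap (log2FC -1.55, standard error 0.16, limma adjusted p = 1.3e-14), as were the microfibril gene Mfap4 (log2FC -0.87, adjusted p = 7.9e-06) and the complement proteases C1ra (log2FC -0.78, adjusted p = 1.1e-08) and C1s1 (log2FC -0.82, adjusted p = 7.5e-07).

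Of 35 classical glucocorticoid receptor targets tested, 2 rose and 2 fell, for a median of -0.01. The phosphatase Dusp4 rose (log2FC 0.54, adjusted p = 0.0059), as did Errfi1, a feedback inhibitor of the epidermal growth factor receptor (log2FC 0.45, adjusted p = 0.02). Dusp1 (log2FC -0.43, adjusted p = 0.01) and Cebpb (log2FC -0.59, adjusted p = 0.028) fell. Over all genes 7.39% were higher and 9.49% lower. Without X173 and X74, 1 target was higher and 0 lower by limma, and with the round of 20 library codes as a term 3 were higher and 3 lower. Tsc22d3, the leucine zipper GILZ, ranged over 108.5 to 166.4 CPM (median 141.7) in PBS.CS libraries and 81.6 to 274 CPM (median 113.7) in PBS.CS.DEX libraries and did not pass (log2FC -0.21, standard error 0.24, limma adjusted p = 0.6). Fkbp5, a receptor co-chaperone and feedback inhibitor, ranged over 24.5 to 67 CPM (median 41.5) in PBS.CS libraries and 34.5 to 81.8 CPM (median 43) in PBS.CS.DEX libraries (log2FC 0.19, standard error 0.21, limma adjusted p = 0.58). Per1, Zbtb16 and Sgk1 did not pass either (log2FC 0.11, adjusted p = 0.86 for the first, log2FC -0.86, adjusted p = 0.12 for the second and log2FC -0.16, adjusted p = 0.36 for the last). Other members spanned log2FC -0.52 to 0.67, from Cebpd to Hif3a, all short of the threshold. A palindromic receptor half-site pair, ACANNNTGT, was in 5 of 30 target promoters, in 5.64% of all promoters, and in 4.66% and 7.03% of those of genes higher and lower with DEX. The receptor itself, Nr3c1, was at -0.10 and did not pass. In the receptor machinery list 4 of 17 tested rose and none fell (median 0.15). These were H6pd, which feeds the enzyme that reactivates cortisone (log2FC 0.39, adjusted p = 0.00017), the drug exporter Abcb1b (log2FC 0.47, adjusted p = 0.00024), and the coregulators Ncoa1 (log2FC 0.25, adjusted p = 0.011) and Ncor1 (log2FC 0.27, adjusted p = 0.014). Without X173 and X74, 2 of that list rose.

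The circadian clock list held 19 tested genes and limma called none of them in the fit of 160 libraries (2 higher and 1 lower at an unadjusted p under 0.05, 0 by edgeR, 1 higher by DESeq2), at a median of 0.12. Their smallest adjusted p was that of the repressor Cry2 (log2FC 0.23, adjusted p = 0.072). With the round of 20 library codes as a term limma called 1 higher, and with the 20 libraries fitted alone 1 higher and 1 lower. In the air groups the level of Per1 differed between rounds. Per1 ran from 15.4 to 45.2 CPM in the first 6 rounds of PBS.AIR and from 84.3 to 120.1 CPM in the last 4, and from 6.54 to 17.05 CPM and from 25.1 to 63.9 CPM in PBS.AIR.DEX. In smoke the output gene Dbp ranged over 2.48 to 73.3 CPM (median 10.4) in PBS.CS libraries and 1.53 to 112.2 CPM (median 3.12) in PBS.CS.DEX libraries. The smoke-responsive NRF2 antioxidant list (26 genes, median -0.01) had none that limma called in the fit of 160 libraries (2 higher and 4 lower at an unadjusted p under 0.05, 1 lower by edgeR, 1 higher and 1 lower by DESeq2). Limma called 1 of them lower with the round of 20 library codes as a term, 1 with the 20 libraries fitted alone, 2 with the 80 parenchyma libraries and 1 without X173 and X174. Of the aryl hydrocarbon receptor list 1 of 11 tested fell, Cyp1b1 (log2FC -0.57, adjusted p = 0.0074), with a median of 0.05. For this list and those that follow, the shares over all genes were 7.39% higher and 9.49% lower. Alveolar endothelial genes fell in 6 of 22 tested members (median -0.16), among them the ligand Apln (log2FC -0.76, adjusted p = 0.0012), its receptor Aplnr (log2FC -0.64, adjusted p = 0.0078) and the adhesion molecule Vcam1 (log2FC -0.48, adjusted p = 0.0016). In the beta adrenoceptor and bronchodilator target list, which holds leukotriene synthesis genes, 1 of 17 tested members rose and 5 fell (median -0.32). Those that fell included Alox5 (log2FC -0.62, adjusted p = 0.00021), Alox5ap (log2FC -0.59, adjusted p = 0.00014) and Ltc4s (log2FC -0.80, adjusted p = 0.00039).

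Whether smoke changed the response was tested as the DEX effect in smoke less the DEX effect in air. It was lower for 411 genes (2.25%) and higher for 0.97% of genes at an adjusted p-value under 0.05. DEX in air, from libraries that are outside the smoke contrast but share its fit, raised 1939 genes (10.6%) and lowered 2185 (12%). Of the genes lower in smoke, 838 were lower in air, which is 48.4% of the smoke list and 38.4% of the air list, and of those higher in smoke, 605 were higher in air, 44.9% and 31.2%. Opposite calls were 65 and 4. T cell, cytotoxic and MHC class II lists fell in both, with medians in air of -1.10, -1.81 and -1.09.

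The genes with the smallest p-values in the lower direction had higher levels in PBS.AIR.DEX than in PBS.AIR. Gpnmb, a glycoprotein of lipid-laden macrophages, had a median of 36.5 CPM in PBS.AIR and 238 CPM in PBS.AIR.DEX (log2FC 2.65, adjusted p = 3.2e-18). In smoke it ranged over 236 to 464 CPM (median 367) in PBS.CS libraries and 254 to 621 CPM (median 378) in PBS.CS.DEX libraries and did not pass the test (log2FC 0.13, adjusted p = 0.78), and the difference was -2.52, standard error 0.34, adjusted p = 2.9e-08. Ctsk, cathepsin K, followed the same pattern, with a median of 69.1 CPM in PBS.AIR and 289 CPM in PBS.AIR.DEX and a difference of -2.27, standard error 0.30, adjusted p = 2.9e-08. Plet1, a cell surface protein, rose in air (log2FC 0.85, adjusted p = 7.9e-09) and fell in smoke (log2FC -0.54, adjusted p = 0.00085), where it ranged over 220.2 to 322 CPM (median 253) in PBS.CS libraries and 113.01 to 238 CPM (median 176.1) in PBS.CS.DEX libraries (difference -1.40, standard error 0.18, adjusted p = 7.5e-09). Lcn2, lipocalin 2, had a median of 98.8 CPM in PBS.AIR and 378 CPM in PBS.AIR.DEX, against 1555 CPM in PBS.CS and 1381 CPM in PBS.CS.DEX (difference -1.77, standard error 0.35, adjusted p = 0.00025). In the lipid-laden macrophage list 13 of 24 members passed this test, all lower, and 15 members of the list were higher in PBS.AIR.DEX than in PBS.AIR, as were 8 of 17 neutrophil genes. Of the NRF2 antioxidant list 12 of 26 members were higher with DEX in air and 0 lower, beside 10.6% and 12% over all genes. The summed level of neutrophil-attracting chemokines had a median of 1235 CPM in PBS.AIR and 4061 CPM in PBS.AIR.DEX. For chemokines that draw monocytes and T cells these medians were 562 and 1258 CPM. Of these 2 lists 5 and 1 members were higher with DEX in air and 1 and 3 lower. Gpnmb ran from 27.7 to 88.9 CPM in PBS.AIR and from 204.5 to 300.3 CPM in PBS.AIR.DEX, with no overlap. Gpnmb, Ctsk and Lcn2 were also higher in both smoke groups than in PBS.AIR by median. The labels give no account of these levels in the air DEX libraries, and the part that they have in the difference between smoke and air was not tested.

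In the higher direction the 3 smallest p-values were those of Fam117a (0.42, standard error 0.08, adjusted p = 0.00012), Bace1, the beta-secretase (0.47, standard error 0.09, adjusted p = 0.00046), and Rev1, a lesion-bypass polymerase (0.66, standard error 0.13, adjusted p = 0.00045), and all were lowered by DEX in air (log2FC -0.22, -0.45 and -0.60). The clock gene Per2 fell with DEX in air (log2FC -1.58, adjusted p = 0.00012) and was at 0.23 in smoke (difference 1.81, standard error 0.48, adjusted p = 0.015), with Cry2 similar (difference 0.59, standard error 0.13, adjusted p = 0.0017). Tsc22d3 and Per1 fell in air (log2FC -1.13, adjusted p = 0.00017 and -1.31, adjusted p = 0.0011), but for them the difference between smoke and air did not pass (adjusted p = 0.11 and 0.062). Col6a2 rose in smoke and was at -0.04, adjusted p = 0.84 in air (difference 0.78, standard error 0.16, adjusted p = 0.00052). Without X173 and X174, the airway PBS.CS library with the next code, 0.614% of genes were higher and 1.49% lower in this test, and without X173 and X74, 0.258% and 1.43%.

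**Figure D4:**
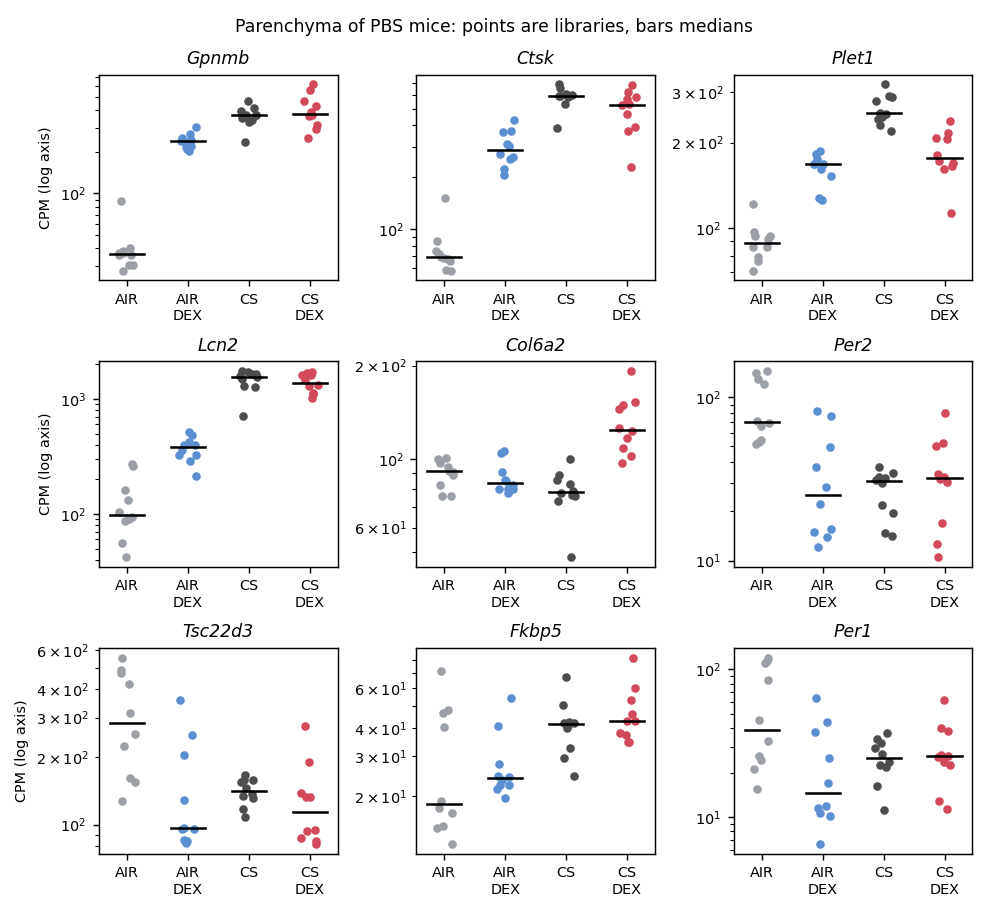
CPM of 9 genes (log axes) in parenchyma of PBS mice by group, AIR, AIR with DEX, CS and CS with DEX; points are libraries and bars medians. Gpnmb and Ctsk rise from air to air with DEX and are high in both smoke groups, Plet1 rises with DEX in air and falls with DEX in smoke, Col6a2 is higher with DEX in smoke, and Tsc22d3, Fkbp5 and Per1 overlap between the smoke groups.

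Smoke itself was compared with air as PBS.CS less PBS.AIR, which shares the PBS.CS libraries with the DEX effect, so values are given side by side only. Cd207 was at log2FC 1.27 with smoke and -3.52 with DEX, Mmp12 at 2.90 and -1.32, Il12b at 2.28 and -2.79, and Ccl22 at 2.52 and -1.64. Lcn2 was at 3.69 with smoke and -0.05 with DEX, and Gpnmb at 3.24 and 0.13. For Mmp12 the DEX libraries (median 122.3 CPM) had a higher median than PBS.AIR libraries, at 34.1 CPM.

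In the airways of the same exposures DEX lowered 1205 genes (6.6%) and raised 854 (4.68%), and in parenchyma of mice given HDM and smoke it lowered 985 (5.4%) and raised 449 (2.46%). Of the genes lower in smoke parenchyma, 937 were lower in the airway (54.1% of the parenchyma list, 77.8% of the airway list) and 657 in the HDM and smoke parenchyma (37.9% and 66.7%), with no opposite call in either. The difference between parenchyma and airway was called for 0 genes by limma (0.482% higher and 1% lower at an unadjusted p under 0.05), with 0 higher and 1 lower by edgeR and 0 and 9 by DESeq2. These limma shares are below the rate that an unadjusted threshold of 0.05 gives by chance. The fit took the libraries of the 2 tissues as independent, because the labels do not pair them. Whether shared mice made this test conservative was not tested. Between PBS and HDM mice limma also called 0 (694 and 737 unadjusted), edgeR 0 in both directions, and DESeq2 5 higher and 2 lower. A p-value that misses the threshold does not show that the responses were alike. Cd207 was at -3.18 in the airway and -3.17 in HDM and smoke parenchyma, H2-Aa at -1.43 and -1.14, and Slc4a1 at -4.65 and -5.26.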

How the data were processed

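RNA-seq of dissected mouse lung was read as 100 bp single ends. The authors aligned to mm10 with STAR 2.5.1b and quantified with RSEM 1.2.31 and kallisto 0.44.0, and deposited estimated counts per gene without scaling (43346 identifiers, 20.3% of non-zero values not whole). Which of these tools gave the estimated counts is not given in the sources used here, nor is the use of strand, so overlapping genes may share reads. Symbols and coordinates came from GENCODE M21 with versions ignored, as 53.3% of identifiers carried the same version.

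Estimated counts were rounded. In R 4.3.3, genes reaching the CPM equivalent of 10 counts in at least 9 libraries (18250) were scaled by TMM (edgeR 4.0.16) and fitted with limma-voom (limma 3.58.1), with a mean for each of the 16 groups in the 160 libraries at 11 weeks and p-values adjusted by Benjamini-Hochberg, after the methods that the study gives for its 3 week groups. Genes were called at an adjusted p of 0.05 either alone or together with a log2FC of 1. Differences between DEX effects were interaction contrasts. The fit was also run on simulated counts with the same dispersion for every gene and no differences between tissues or rounds. That run therefore says nothing about the spread in these libraries. Replicate pairs differed by a chi-square per degree of freedom of at least 9.48.

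Groups came from sample titles. Genes were named by smallest p, by largest change above a mean of 1 CPM, and by smallest p for the differences between DEX effects. The 4 smallest p of each of 41 hand-written lists, and all receptor and clock genes, were named too. Other list members used as examples were picked after their values were seen. The comparison and lists were chosen with earlier results of these data known. As alternatives, edgeR quasi-likelihood, DESeq2 1.42.0 and its size factors, other filters and sets of libraries, quality weights, a term for rounds of 20 codes and omitted libraries were tried. The settings without X173 and X74, and without haemoglobin genes, were chosen after seeing the data. Some genes that the rule names are not reported here.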

Additional observations from a re-analysis of the deposited data

Results flagged for a closer look

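Single libraries lay far from the rest of their group of 10 for the genes listed here, by the gap to the nearest library over the group range. Chance alone does this for about 1 in 20 groups, and 241 genes were examined in both groups. In PBS.CS library X173 these were Poc1a at 12.2 CPM, Tnfaip3 at 38.7 CPM, Abca1 at 63.2 CPM, Ppbp at 4.98 CPM, Wfdc21 at 85.3 CPM, Gpihbp1 at 220.1 CPM, Scn7a at 159.6 CPM, Scgb3a2 at 1755 CPM, Tff2 at 7.77 CPM, 1110017D15Rik at 35.7 CPM, Chad at 28.8 CPM, Col6a2 at 48.1 CPM, Col5a2 at 41.1 CPM, Alox5ap at 106.2 CPM and Bace1 at 15.6 CPM. In PBS.CS library X94 these were Lcn2 at 707 CPM, Nr3c2 at 20.3 CPM, Hsd11b2 at 1.84 CPM, Cfb at 146.1 CPM, Ccnb2 at 3.84 CPM, Aplnr at 127.003 CPM, Ctsk at 388 CPM and Gpnmb at 236 CPM. In PBS.CS.DEX library X116 these were Nr3c2 at 11.8 CPM, Thbs1 at 303 CPM and Plet1 at 113.01 CPM. In PBS.CS.DEX library X176 these were Slc7a11 at 11.6 CPM, Ccl22 at 3.14 CPM and Jchain at 12.3 CPM. In PBS.CS library X114 these were Aurkb at 5.09 CPM and Tg at 0.579 CPM. In PBS.CS library X154 these were Mmp12 at 238 CPM and Foxp3 at 0.517 CPM. In PBS.CS.DEX library X56 these were Apln at 15.7 CPM and Col2a1 at 0.113 CPM. In PBS.CS.DEX library X76 these were Rsad2 at 8.01 CPM and Myl4 at 3.55 CPM. In PBS.CS.DEX library X96 these were Poc1a at 10.9 CPM and Bace1 at 28.9 CPM. In PBS.CS library X14 this was Myh6 at 27.2 CPM. In PBS.CS library X194 this was Ifi44 at 10.6 CPM. In PBS.CS library X74 this was Hlf at 3.51 CPM.

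At an adjusted p-value under 0.05, the DEX effect in smoke less that in air was higher for 0.97% and lower for 2.25% of all genes. By this interaction test the DEX effect differed for 28 of the genes examined, some picked by their small p in it. On the log2 scale it was higher in smoke for Col6a1 (0.50), Ctnnal1 (0.35), Cry2 (0.59), Per2 (1.81), Arnt (0.31), Col6a2 (0.78), Fam117a (0.42), Rev1 (0.66) and Bace1 (0.47). It was lower in smoke for Gpnmb (-2.52), Ctsk (-2.27), Tnni2 (-2.20), Wfdc21 (-1.96), Lcn2 (-1.77), Ccl17 (-1.55), Slc26a4 (-1.55), Plet1 (-1.40), Itgax (-1.16), Bhlhe41 (-1.06), Siglecf (-1.05), Cd22 (-1.03), Scgb3a2 (-0.99), Ltc4s (-0.85), Ctss (-0.83), Plin2 (-0.75), Fth1 (-0.70), Ftl1 (-0.69) and Anxa1 (-0.41). Tnni2 is a skeletal muscle gene, and PBS.CS library X173 held the highest skeletal muscle level of the 20 libraries.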

How the results depend on the processing

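No named gene turned direction with a call under any alternative tried. Counts are given here as the share of genes tested. Leaving out 1 library at a time gave 0.296% to 0.433% higher and 2.03% to 2.78% lower with the fold limit, and 5.05% to 8.56% higher and 7.55% to 10.7% lower without it, with the lowest shares of the last pair without PBS.CS library X173. A CPM of at least 10 in 9 libraries, which tests 12187 genes, gave 0.123% higher and 1.22% lower with the fold limit, and DESeq2 0.553% higher. Without the limit, quality weights gave 12.1% higher and 15.1% lower, and leaving out X173 and X74 4.16% higher. Smoke less air came to 3.01% higher and 4.44% lower with quality weights, 2.29% and 3.68% with the round of 20 codes as a term, 0.614% and 1.49% without X173 and X174, 0.258% and 1.43% without X173 and X74, and to 1.82% higher with 80 parenchyma libraries fitted and 2.24% with DESeq2. Parenchyma less airway was lower for 0.00548% (1 gene) with the round term or edgeR and 0.0493% with DESeq2. PBS less HDM came to 0.378% higher and 0.493% lower with quality weights, 0.0274% and 0.011% with DESeq2, and 0.00334% lower without a filter. The cause was not tested. Among values of named genes, 39 lost and 70 gained significance under other settings, and 60 and 31 did so with 1 library left out, most often Gpx3, Ube2c, Aurkb, Tpm2 and Cebpb among the losses. Ncor1, Pf4, Wfdc21 and Fcer1a lost it without X173. Lower lipid-laden macrophage genes numbered 11 when the 20 or the 80 parenchyma libraries were fitted alone. Labels give no replicate numbers shared between groups, but each round holds 1 library of each group, and with the round as a block 1787 genes were higher and 2170 lower without the fold limit. Genes under the filter were not tested.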

Other observations

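Club and goblet cell genes were 0 higher and 0 lower of 19 (median -0.19), ciliated cell genes 0 higher and 0 lower of 13 (median -0.08), adipose genes 0 higher and 0 lower of 14 (median -0.34) and heat shock genes 0 higher and 0 lower of 11 (median 0.15) by limma. At an unadjusted p under 0.05 these 4 lists held 1 gene, a lower club and goblet gene, and edgeR and DESeq2 each called 2 club and goblet genes lower and 0 in the other 3 lists. Limma called 1 club and goblet gene lower with the round of 20 codes as a term, 3 of 17 with the 20 libraries fitted alone and 2 with the 80 parenchyma libraries, and 1 adipose gene lower of 9 with the 20 libraries and 1 higher of 12 with the 80. Alveolar fibroblast genes were 1 higher and 1 lower of 20 (median -0.01), skeletal muscle genes 0 higher and 1 lower of 6 (median -1.71), cartilage and thyroid genes 1 higher and 0 lower of 8 (median -0.07), monocyte genes 1 higher and 5 lower of 13 (median -0.36), acute phase and complement genes 1 higher and 5 lower of 22 (median -0.11), and matrix protease and inhibitor genes 3 higher and 3 lower of 22 (median -0.01). The 1 lower skeletal muscle gene, Tnni2, lost its call without X173 and X74, where the list median was -0.51. With all libraries kept, edgeR and DESeq2 called 5 and 6 of that list lower. PBS.CS library X173 had the highest skeletal muscle level of the 20 libraries, at a mean log2 CPM of 3.70. Smooth muscle genes were 1 higher and 0 lower of 12 (median 0.17). Beside these counts, 7.39% of all genes were higher and 9.49% lower. Cell cycle genes were 0 higher and 3 lower of 24 (median -0.37) beside 9.49% lower over all genes, among them Ccnb2 (log2FC -0.69, adjusted p = 0.017). Without X173 and X174 1 was lower, and by edgeR and DESeq2 0 (medians -0.24 and -0.23). In DEX libraries their summed level ran from 180.5 to 677 CPM. Immediate early genes were 0 higher and 5 lower of 25 (median -0.13), among them Egr2 (log2FC -0.57, adjusted p = 0.0022) and Dusp2 (log2FC -1.80, adjusted p = 0.00085). In the air groups, whose libraries are outside the smoke contrast but share its fit, 10.6% of all genes were higher with DEX. There the neutrophil list rose in 8 of 17 members and the club and goblet list in 7 of 19. In the smoke contrast the eosinophil and mast cell list fell in 6 of 13 and rose in 0 (median -0.96), beside 9.49% lower over all genes. Without X173 and X74, 3 were lower and 1 higher.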
